A study of Mus musculus with 31 samples.

Results

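Imprinted growth genes, which are read from a single parental copy, were followed together with the long noncoding RNAs of their clusters in the 4 array experiments of a study of mice that lack a copy of *Crebbp*, a copy of *Ep300* or both copies of *Cdkn1a*. The genes were *H19*, *Igf2*, *Igf2r*, *Dlk1*, *Meg3*, *Rian*, *Kcnq1ot1*, *Peg3*, *Mest* and *Grb10*, and all 38 probe sets annotated to these 10 genes were taken, of 45037 on the array without its controls. FL HSCs are fetal liver cells sorted as lineage negative, SCA1+, AA4.1+ and highly KIT+, a gate that holds the hematopoietic stem cells. They were compared between 2 *Crebbp*+/- and 2 WT samples, between 2 *Ep300*+/- and 2 WT samples, and between 4 *Cdkn1a*-/- and 3 WT samples, and each sample pooled 15 embryos at 14.5 days post coitus whose liver cells had been frozen and thawed. MEFs, the fibroblasts grown from embryo bodies of the same age, were compared between 4 *Crebbp*+/- and 4 WT samples, each from 1 embryo of litters 1 to 4. The *Crebbp* and *Ep300* mice were C57BL/6 with WT littermates as controls, and their inactivated copy is present in every tissue. The *Cdkn1a*-/- mice and their WT controls were labelled B6/129Sv and bought as separate stocks, so genotype and stock cannot be told apart there. Values are GCRMA levels, log2 intensities that can be compared only within an experiment, and a probe set counted as measured where a sample of its fit reached log2(100), which is 6.64.

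In mammals the imprinted clusters set the dose of fetal growth signals. *Igf2*, active on the paternal copy, encodes a growth factor, whereas *Igf2r*, active on the maternal copy, encodes the receptor that takes this factor to the lysosome, and *Grb10* encodes an adaptor that restrains insulin and IGF signalling. Noncoding RNAs lie in the same clusters: *H19* next to *Igf2*, *Meg3* and *Rian* next to *Dlk1*, and *Kcnq1ot1*, which silences its neighbours on the paternal copy. In the mouse genome (GRCm38.p6) *H19* (chr7:142575530-142578146), *Igf2* (chr7:142650768-142666816) and *Kcnq1ot1* (chr7:143213111-143296547) lie close together on chromosome 7, *Dlk1* (chr12:109452485-109463336), *Meg3* (chr12:109540996-109571729) and *Rian* (chr12:109603945-109661716) on chromosome 12, *Igf2r* (chr17:12682406-12769706) on chromosome 17 and *Grb10* (chr11:11930499-12037428) on chromosome 11. *Peg3* (chr7:6703892-6730462) and *Mest* (chr6:30733506-30748466) have clusters of their own. *Crebbp* and *Ep300* encode histone acetyltransferases that bind many transcription factors, the first of them CREB, the factor of the cyclic AMP response element. In the fetal liver *Igf2*, *H19* and *Dlk1* are best known from hepatoblasts, and stem cells also express several genes of the group.

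*H19* also carries *Mir675* in its transcript. Its only probe set is annotated to both, so the array does not separate them, and the mature miRNAs of RefSeq (GRCm38.p6, chromosome 7, minus strand) are shown with their seeds, bases 2 to 8, in capitals to identify what else that probe set stands for.
mmu-miR-675-5p: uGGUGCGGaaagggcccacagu
mmu-miR-675-3p: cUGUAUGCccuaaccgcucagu

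The cyclic AMP response element was searched in the RefSeq promoter windows, of 300 bases around each annotated start in GRCm38.p6. Windows were found for 9 of the 10 genes. The full palindrome TGACGTCA was present in a window of 2 of these 9 genes, *Meg3* and *Peg3*, and in 2.03% of the 27025 genes with a window. The shorter TGACG, or its reverse complement CGTCA, was present in 7 of the 9 and in 23% of all genes, and every full palindrome also holds it. The windows of *Rian*, which had lower levels in *Crebbp*+/- FL HSCs, and of *Mest*, which did not, held neither element. Nor did some windows of *Igf2*, *Meg3* and *Grb10*, which have more than 1. A gene with several windows has more places to hold an element, and by window the short element was in 20.8% of all 32851. The windows of *Meg3*, *Kcnq1ot1* and *Igf2r*, which had lower levels in *Crebbp*+/- FL HSCs, and of *Peg3*, which did not, are shown 5′ to 3′ on the strand of the gene, with the full or short element in capitals.
Meg3, chr12:109540746-109541045, plus strand: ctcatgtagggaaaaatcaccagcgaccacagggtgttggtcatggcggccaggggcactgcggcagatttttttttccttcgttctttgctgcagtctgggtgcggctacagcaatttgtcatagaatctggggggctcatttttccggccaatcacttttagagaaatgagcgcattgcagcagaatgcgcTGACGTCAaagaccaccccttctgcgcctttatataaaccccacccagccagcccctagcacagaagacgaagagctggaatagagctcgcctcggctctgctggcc
Kcnq1ot1, chr7:143296498-143296797, minus strand: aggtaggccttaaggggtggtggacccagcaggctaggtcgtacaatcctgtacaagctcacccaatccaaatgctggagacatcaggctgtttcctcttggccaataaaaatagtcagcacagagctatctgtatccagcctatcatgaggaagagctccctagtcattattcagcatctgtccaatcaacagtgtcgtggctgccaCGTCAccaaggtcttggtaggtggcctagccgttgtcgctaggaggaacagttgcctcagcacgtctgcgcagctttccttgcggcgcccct
Igf2r, chr17:12769657-12769956, minus strand: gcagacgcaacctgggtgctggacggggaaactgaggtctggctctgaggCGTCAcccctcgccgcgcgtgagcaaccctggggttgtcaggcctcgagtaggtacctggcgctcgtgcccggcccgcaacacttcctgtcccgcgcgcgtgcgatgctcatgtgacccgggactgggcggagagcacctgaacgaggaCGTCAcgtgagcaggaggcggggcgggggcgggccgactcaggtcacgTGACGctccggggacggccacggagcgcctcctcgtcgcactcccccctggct
Peg3, chr7:6730370-6730669, minus strand: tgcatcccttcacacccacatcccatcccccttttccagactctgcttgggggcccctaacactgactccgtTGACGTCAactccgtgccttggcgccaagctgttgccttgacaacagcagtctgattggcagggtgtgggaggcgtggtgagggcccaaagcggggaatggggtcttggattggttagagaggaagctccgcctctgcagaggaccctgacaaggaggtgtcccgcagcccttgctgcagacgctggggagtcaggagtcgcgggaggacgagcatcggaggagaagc
The palindrome begins at position -57 from the annotated start of *Meg3* and at -178 from that of *Peg3*. *Kcnq1ot1* holds 1 short element and *Igf2r* holds 3. A match is a description of letters, and no binding was measured in these experiments.

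Marker genes of the labelled cells were measured. All 10 stem cell markers with a probe set, among them *Kit*, *Cd34* and *Mecom*, were measured in each FL HSC experiment, and all 9 fibroblast markers in MEFs. From the same lists, 3 stem cell markers were also measured in MEFs and 2 fibroblast markers in each FL HSC experiment. The probe sets of the inactivated gene were lower without overlap in 4 of 4 for *Crebbp* in MEFs and 1 of 1 for *Ep300*. For *Crebbp* in FL HSCs this held in 1 of 3 measured, and for *Cdkn1a* in 0 of 1. These counts do not follow the sizes. The log2 differences were -1.22 to -0.60 in MEFs, -0.10 for *Ep300*, -0.42 to 0.07 for *Crebbp* in FL HSCs and -1.66 for *Cdkn1a*. In the *Ep300* experiment 30.4% of all probe sets were lower in both pairs. Where the probe sets lie relative to the deleted part was not established. A single library stood apart from the rest. WT sample 3 of the *Cdkn1a* experiment had a level of 12.97 for the red cell membrane gene *Slc4a1*, against 2.36 to 4.53 in the *Cdkn1a*-/- samples and 2.69 and 2.68 in the other WT samples. Its *Alb* level was 14.54, against 6.94 to 9.50 in *Cdkn1a*-/- samples and 3.34 and 3.87 in the other WT samples, and its *C1qb* level was 12.07, against 3.10 to 3.96 and 3.52 and 2.99.

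The group was chosen by its change in *Crebbp*+/- FL HSCs and MEFs, so all values of the 10 genes in these 2 comparisons are given as a description, with no test. In *Crebbp*+/- FL HSCs 13 of the 38 probe sets were measured, at least 1 for every gene. The median log2 difference over the 13 was -0.38, beside 0.05 over all 13332 probe sets tested, and 10 of the 13 were lower in both pairs of samples, a pattern met by 26% of all probe sets. Probe sets that were lower without overlap are part of these 26%, and their own share was not counted. Of the 13, 2 (*Mest* and a *Meg3* probe set) lay below log2(100) in all 4 of these samples and entered the fit only through *Ep300* experiment WT samples. Among the 13 the difference was largest for *Kcnq1ot1* and *Meg3*, intermediate for *Igf2* and *Igf2r*, and small for *Rian*, *Dlk1*, *H19* and *Grb10*, while *Peg3* and *Mest* lay higher in both pairs. A call needed an adjusted p (Benjamini-Hochberg, limma) under 0.05 with a fold change over 1.5. Over all probe sets limma called 0.383% (51 of 13332), and none once the replicate block was dropped, when 690 still passed that fold and an unadjusted p under 0.05. The 51 hold 1 of the 13, *Kcnq1ot1* 1442029_at, from which nothing is read, since these values chose the genes. In samples of this kind, fewer cells that express a gene and less RNA per cell cannot be told apart.

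**Figure D1:**
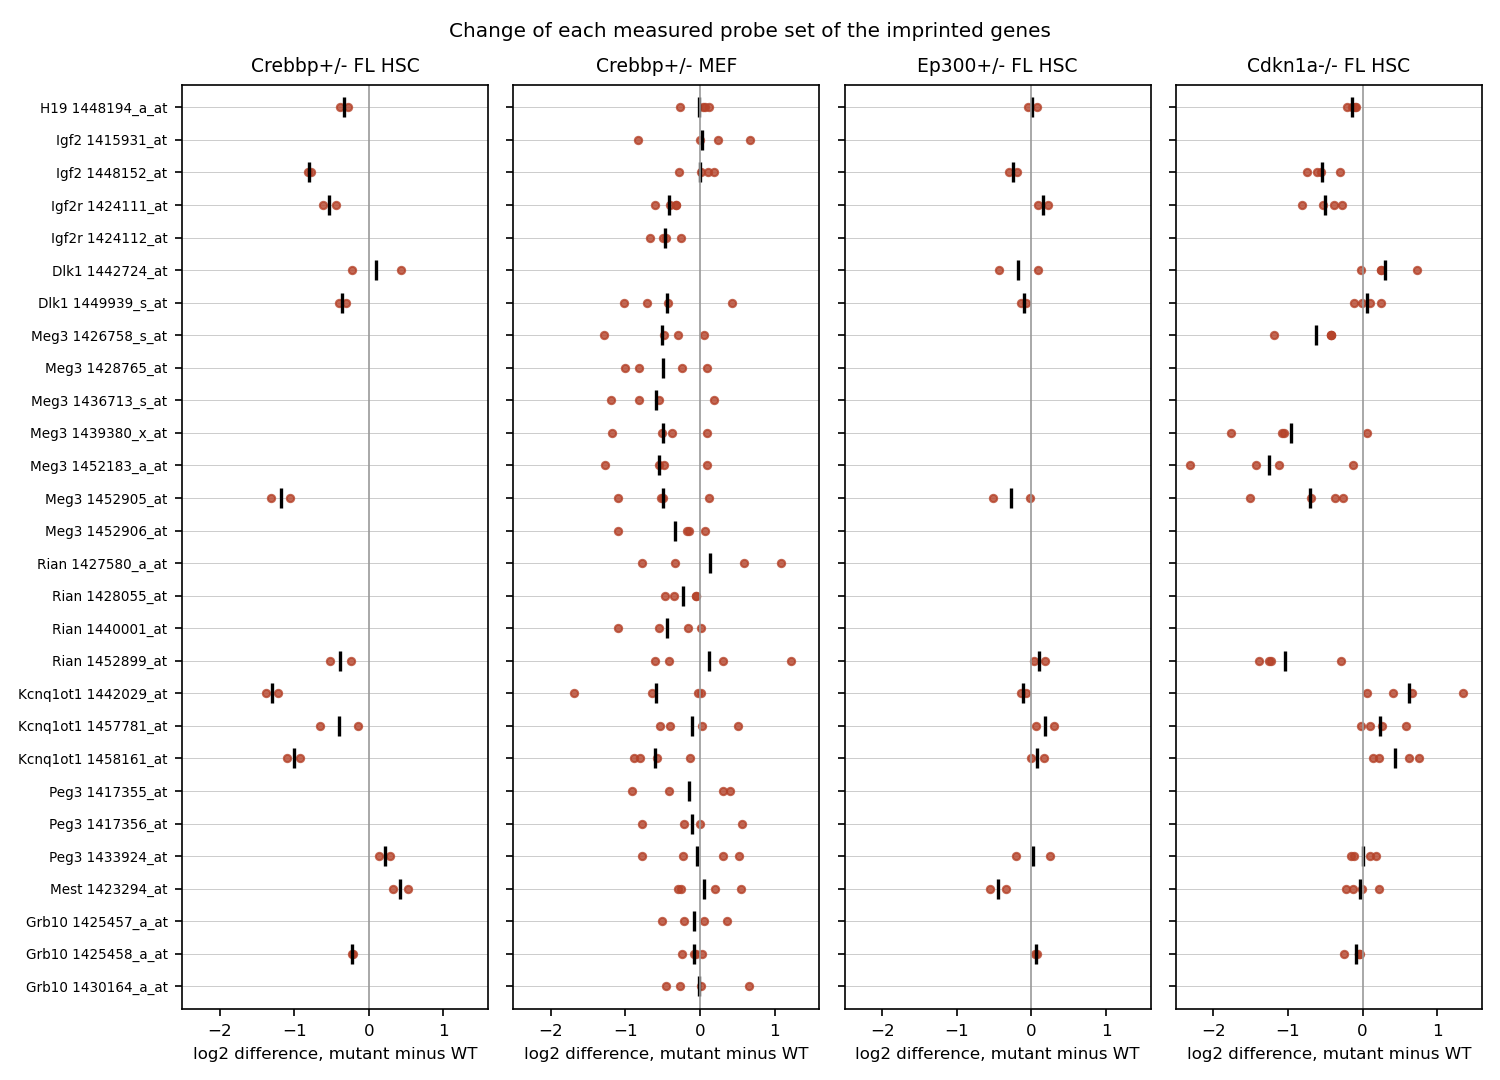
Log2 difference between mutant and WT for each measured probe set (rows) in the 4 experiments (panels). Points are pairs of the same number, or in the *Cdkn1a* panel each *Cdkn1a*-/- sample minus the WT mean, and the black bar is the difference of the group means. In *Crebbp*+/- FL HSCs 10 of 13 probe sets have both points below 0, a pattern met by 26% of all probe sets. In MEFs 4 of 27 have all 4 points below 0, a stricter pattern met by 6.25% of all probe sets.

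*Igf2* and its receptor were both lower in *Crebbp*+/- FL HSCs. The *Igf2* level was 7.36 and 6.79 in the *Crebbp*+/- samples, against 8.18 and 7.56 in WT, a mean of 7.07 ± 0.41 and 7.87 ± 0.44 (SD, n = 2 each). The samples numbered 1 were the higher in each genotype, and the difference was nearly the same within the pairs, at -0.82 and -0.78. Its standard error from limma was 0.10, and WT had 1.74 times the intensity. *Igf2r* stood at 7.81 and 7.80 in *Crebbp*+/- samples and at 8.42 and 8.24 in WT samples. Its groups did not overlap, and its log2 difference was -0.53 ± 0.11 (standard error). *Grb10*, the adaptor, was at 11.14 and 10.79 in *Crebbp*+/- samples and at 11.36 and 11.01 in WT samples. The difference of -0.22 was equal in both pairs but smaller than the step between the samples of a genotype, so the groups overlapped.

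Among the noncoding RNAs with levels above log2(100), the largest differences were those of *Kcnq1ot1*. Its probe set 1442029_at had levels of 7.37 and 8.52 in *Crebbp*+/- samples and of 8.58 and 9.89 in WT samples, a log2 difference of -1.29 ± 0.11 (standard error). The pair numbers separated the levels by more than 1 log2 unit in both genotypes, and *Crebbp*+/- sample 2 lay just below WT sample 1, so the difference is read within pairs (-1.21 and -1.38). The brighter probe set 1458161_at varied less between samples. It was at 8.64 and 8.75 in *Crebbp*+/- samples and at 9.73 and 9.67 in WT samples, a mean fold of 0.499, with differences of -1.09 and -0.92 in the pairs. Probe set 1457781_at had the same direction with a smaller size, at 8.60 and 8.78 against 9.24 and 8.92. The technical arrays of a sample lay up to 0.73 apart for 1442029_at and up to 0.64 apart for 1458161_at.

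*Meg3* 1452905_at was at 4.996 and 4.987 in *Crebbp*+/- samples, against 6.31 and 6.04 in WT samples, a log2 difference of -1.18 ± 0.16 (standard error). All 4 levels lay below log2(100), where the size of a difference depends on the background correction, and this probe set entered the fit only through the *Ep300* samples. The other 10 *Meg3* probe sets were at 2.27 to 5.99 and were not measured. Among them 1452183_a_at was at 4.56 ± 0.04 in *Crebbp*+/- and 5.94 ± 0.07 in WT samples, and 1439380_x_at at 3.31 ± 0.23 in *Crebbp*+/- and 4.75 ± 0.59 in WT samples (SD, n = 2 each). *Rian*, of the same cluster, was at 7.56 and 7.19 in *Crebbp*+/- samples and at 7.80 and 7.71 in WT samples. The brighter probe set of *Dlk1*, the protein-coding gene of the cluster, was at 7.73 and 7.64 in *Crebbp*+/- samples and at 8.04 and 8.05 in WT samples. These averaged levels did not overlap. Its technical arrays did overlap, at 7.24 and 8.04 in *Crebbp*+/- sample 2 and at 8.15 and 7.95 in WT sample 2. The second probe set of *Dlk1* had no common direction. It stood at 6.86 and 5.92 in *Crebbp*+/- and at 7.09 and 5.49 in WT samples, lower in pair 1 and higher in pair 2. Both group means (6.39 and 6.29) lay below log2(100). The technical arrays of sample 2 were at 6.41 and 5.44 in *Crebbp*+/- and at 6.51 and 4.48 in WT, so the direction in pair 2 depended on the array.

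*H19*, read with *Mir675*, was lower in both pairs by a small amount, at 12.09 and 11.77 in *Crebbp*+/- samples and at 12.37 and 12.15 in WT samples. Its log2 difference was -0.33, beside -0.80 for *Igf2*, its neighbour. The paternally expressed *Peg3*, a zinc finger gene, was at 7.75 and 8.28 in *Crebbp*+/- samples, against 7.61 and 7.99 in WT samples. *Mest*, also paternally expressed, was at 5.84 and 6.35 against 5.32 and 6.03. Both were therefore slightly higher in each pair, with overlapping groups, and every *Mest* level lay below log2(100).

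**Figure D2:**
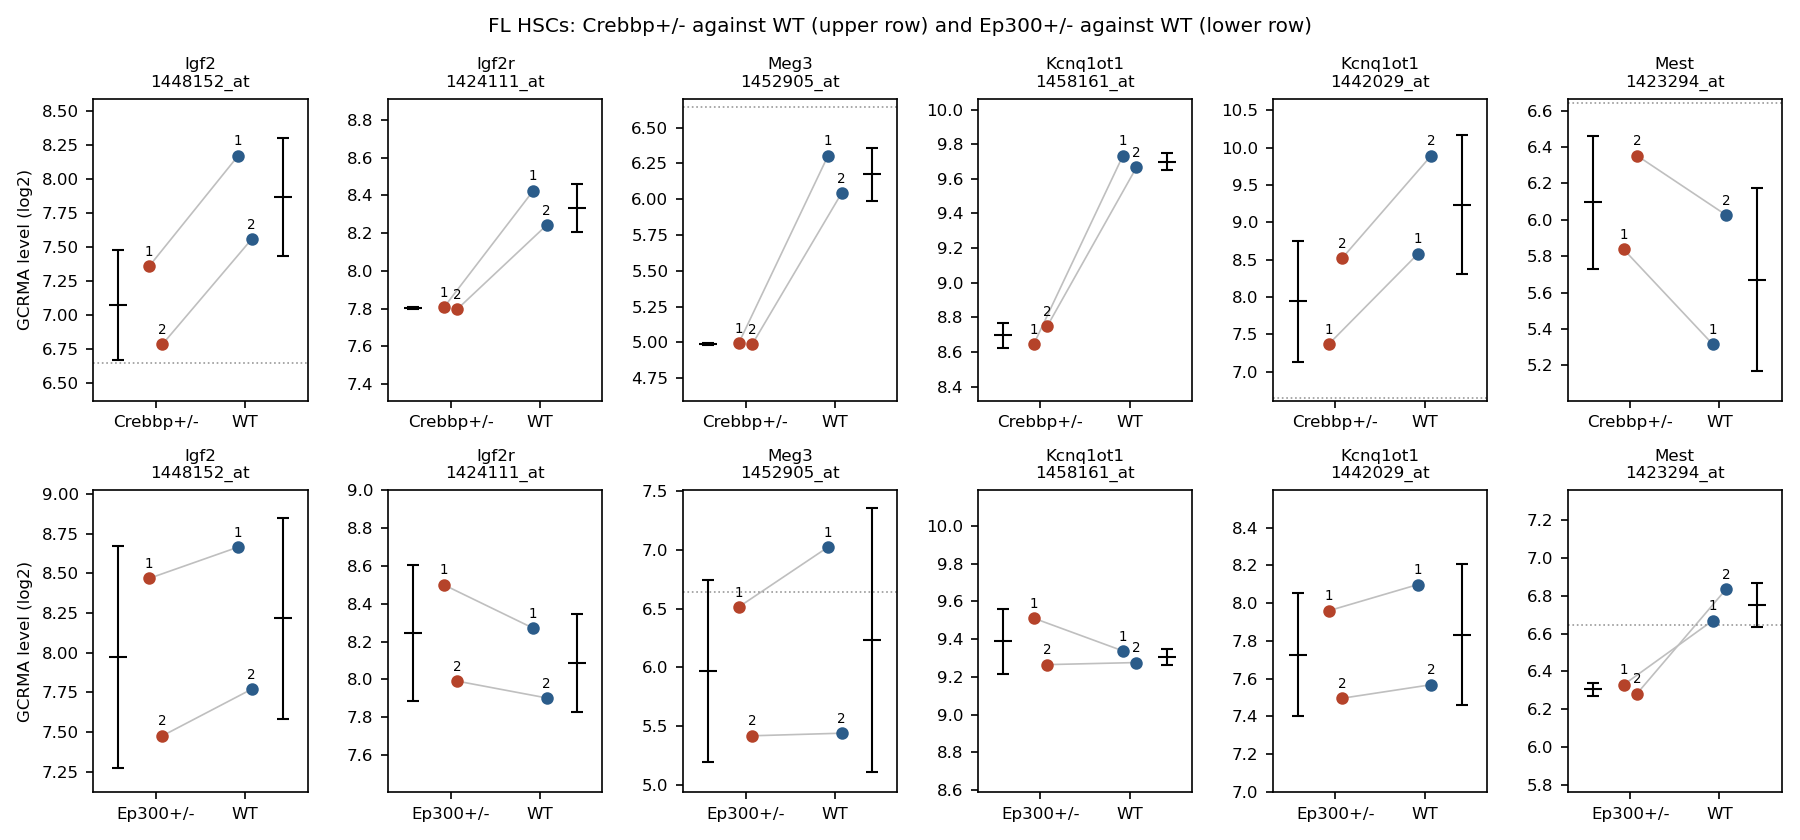
GCRMA levels (log2) of 6 probe sets in FL HSCs, with *Crebbp*+/- and WT samples in the upper row and *Ep300*+/- and WT samples in the lower row. Points are samples with their number, lines join pairs, black bars show the mean and SD (n = 2), and the dotted line marks log2(100). Each axis has its own range of levels. *Kcnq1ot1* 1458161_at lies at 8.64 and 8.75 in *Crebbp*+/- samples, below 9.73 and 9.67 in WT, and at 9.51 and 9.27 in *Ep300*+/- samples, beside 9.34 and 9.28 in WT.

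The other cell types of the fetal liver were followed beside these values. Of 9 hepatocyte markers 5 were measured, with a summed intensity of 1072 to 1146 in *Crebbp*+/- samples and of 689.2 to 1604 in WT samples, where all 5 had a higher *Crebbp*+/- mean and *Alb* was at 5.85 and 5.74 in *Crebbp*+/- samples and at 2.43 and 7.06 in WT samples. The WT samples thus differed more from each other than from *Crebbp*+/- samples, and *Igf2* was higher in the WT sample with little *Alb*. Of the 4 red cell markers and the 7 macrophage markers none was measured, with sums of 23.37 to 25.48 and of 74.36 to 101.5 in *Crebbp*+/- samples, against 19.95 to 20.18 and 95.17 to 98.19 in WT samples. Of the stem cell markers 5 of 10 were lower and *Meis1*, a homeobox regulator of stem cells, had the largest difference, at -1.26 (adjusted p = 0.0508, limma). The study lists *Meis1* among the genes with lower intronic probe sets in these cells. It also reports a change in a *Meis1* mRNA probe set, which it says could read an intron or a putative alternative 3′ exon. Whether the probe set used here reads spliced mRNA or an intron was not established. Endothelial markers (2 of 7 measured) summed to 686.9 to 874.9 in *Crebbp*+/- and 641.6 to 894.8 in WT samples, and stromal markers (1 of 8 measured) to 106.9 to 173.2 and 84.19 to 172.5. The 3 measured sex-linked genes were lower in both pairs. *Xist* was at 11.45 and 11.47 in *Crebbp*+/- samples and at 11.78 and 11.79 in WT samples, and the log2 differences of the Y-linked *Eif2s3y* and *Kdm5d* were -0.51 and -0.16. The part of cell composition and of these genes in the differences of the imprinted genes was not tested.

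In *Ep300*+/- FL HSCs, where the values did not choose the genes, none of the 13 measured probe sets passed the test. The median log2 difference was 0.015, beside -0.016 over all probe sets, and 5 of 13 were lower in both pairs, beside 30.4% of all probe sets. The share of probe sets called was 0% (0 of 13332 by limma, with 104 at an unadjusted p under 0.05 and a fold over 1.5), and all 13 adjusted p-values were 0.9999. *Mest* was at 6.33 and 6.28 in *Ep300*+/- samples, against 6.67 and 6.84 in WT samples. It reached log2(100) only in these 2 WT samples and so entered the fit only through the group in which it was high.

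The genes with the largest differences in *Crebbp*+/- FL HSCs had small differences here. *Kcnq1ot1* 1458161_at was at 9.51 and 9.27 in *Ep300*+/- samples and at 9.34 and 9.28 in WT samples. Its probe set 1442029_at was at 7.96 and 7.50 against 8.10 and 7.57. Probe set 1457781_at was higher in both pairs without overlap, with a log2 difference of 0.18 ± 0.16 (standard error). The technical arrays of a sample lay up to 1.95 apart for 1442029_at, 1.22 for 1457781_at and 0.92 for 1458161_at. These gaps exceeded the differences between the genotypes. *Igf2* stood at 8.47 and 7.48 in *Ep300*+/- samples and at 8.67 and 7.77 in WT samples, a log2 difference of -0.25 ± 0.10 (adjusted p = 0.9999, limma). *Igf2r* was slightly higher, at 8.50 and 7.99 against 8.27 and 7.90. *Meg3* was at 6.51 and 5.42 in *Ep300*+/- samples and at 7.03 and 5.44 in WT samples, so the samples of a genotype lay further apart than the genotypes. It reached log2(100) in 1 WT sample only. *H19* differed by 0.015 ± 0.105, *Grb10* by 0.06 ± 0.10 and *Peg3* by 0.02 ± 0.15 (standard errors). The difference between the *Crebbp* and *Ep300* values was not tested, since the first were used to choose the genes.

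In *Crebbp*+/- MEFs 27 of the 38 probe sets were measured, again at least 1 for every gene. The median log2 difference was -0.23, beside 0.02 over all 15502 probe sets, but with a single probe set for each gene, the brightest, it was -0.07. In 4 of the 27, 2 of *Igf2r* and 1 each of *Rian* and *Kcnq1ot1*, the level was lower in all 4 litters, beside 6.25% of all probe sets. The share that was lower without overlap, which is part of these 6.25%, was not counted. The 3 *Kcnq1ot1* probe sets reached log2(100) only in WT samples, so they were measured only through the group in which they were high. Over all probe sets limma called 0% (0 of 15502, with 149 at an unadjusted p under 0.05 and a fold over 1.5), from which nothing is read for the 27. The median lay at -0.77 in litter 1, at -0.21 in litter 2, at -0.41 in litter 3 and at 0.09 in litter 4. The lower means were not shared by all genes. Beside *Kcnq1ot1*, the larger differences were those of *Igf2r*, *Meg3* and *Dlk1*, *Rian* was split, and *H19*, *Igf2*, *Peg3*, *Mest* and *Grb10* lay near 0.

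*Igf2r* was the gene with the steadiest difference. Its brighter probe set 1424112_at was at 11.48, 11.79, 11.72 and 11.81 in *Crebbp*+/- MEFs of litters 1 to 4, against 12.15, 12.04, 12.22 and 12.26 in WT MEFs. The other, 1424111_at, was at 9.34, 9.49, 9.68 and 9.59, against 9.94, 9.90, 9.996 and 9.91. Neither overlapped between genotypes, and the log2 differences were -0.47 ± 0.09 and -0.41 ± 0.08 (standard errors). In FL HSCs the probe set measured in both, 1424111_at, had differed by -0.53. The probe set shared with the antisense RNA *Airn* stayed at 3.89 to 4.02 in all MEF samples and was not measured.

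The ligand had small mean differences. *Igf2* 1448152_at was at 14.68, 14.66, 14.57 and 14.84 in *Crebbp*+/- MEFs and at 14.96, 14.56, 14.56 and 14.65 in WT MEFs, a log2 difference of 0.01 ± 0.10 (standard error). *H19* was at 15.31, 15.33, 15.25 and 15.44 in *Crebbp*+/- MEFs and at 15.57, 15.29, 15.19 and 15.32 in WT MEFs, a log2 difference of -0.01 ± 0.09. For these 2 probe sets only litter 1 had the lower level in the *Crebbp*+/- sample. The dimmer *Igf2* 1415931_at was at 11.79, 11.34, 9.96 and 11.80 in *Crebbp*+/- MEFs and at 11.79, 11.10, 10.79 and 11.13 in WT MEFs, and was lower in litter 3 only. The 3 probe sets of *Grb10* differed by -0.09 to -0.02, the 3 of *Peg3* by -0.15 to -0.05 and *Mest* by 0.05, each with litters on both sides of 0.

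All 7 measured probe sets of *Meg3* had a lower mean in *Crebbp*+/- MEFs, with log2 differences of -0.60 to -0.34. The brightest, 1439380_x_at, was at 11.78, 11.38, 11.66 and 12.47 in *Crebbp*+/- MEFs and at 12.96, 11.76, 12.17 and 12.38 in WT MEFs. The difference was large in litter 1 (-1.29 to -1.01 over the 7), and in litter 4 the values were -0.18 to 0.19. *Dlk1* followed the same order of litters, at 12.59, 11.60, 12.08 and 12.97 in *Crebbp*+/- MEFs and 13.61, 12.31, 12.52 and 12.55 in WT MEFs. The 7 probe sets share 1 RNA and are not replicates, and the groups overlapped for each of them.

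The probe sets of *Rian* split into 2 kinds in MEFs. The brightest, 1452899_at, was at 11.87, 11.42, 10.65 and 11.88 in *Crebbp*+/- MEFs and at 11.56, 11.84, 11.27 and 10.67 in WT MEFs, and 1427580_a_at ran with it. The differences within litters were 0.30, -0.42, -0.61 and 1.22, without a common direction. The dimmer 1440001_at was at 6.76, 6.66, 6.84 and 7.49 in *Crebbp*+/- MEFs and at 7.86, 6.82, 6.83 and 8.04 in WT MEFs. Here WT litters 1 and 4 stood above the rest, the same 2 WT samples that were highest for *Kcnq1ot1*. *Rian* 1428055_at differed by -0.23 and was lower in all 4 litters, by 0.05 to 0.47.

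*Kcnq1ot1* lay near or below log2(100) in MEFs. Probe set 1458161_at was at 5.89, 5.24, 5.59 and 6.06 in *Crebbp*+/- MEFs and at 6.78, 5.82, 5.73 and 6.87 in WT MEFs, a log2 difference of -0.60 ± 0.14 (standard error) and lower in each litter. Only WT litters 1 and 4 reached log2(100), so the size of this difference depends on the background. Probe set 1442029_at was at 4.98, 5.40, 5.65 and 5.96 against 6.66, 5.39, 5.68 and 6.61, with a difference in litters 1 and 4 and almost none in litters 2 and 3. Probe set 1457781_at differed by -0.10, with 2 litters on each side of 0.

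**Figure D3:**
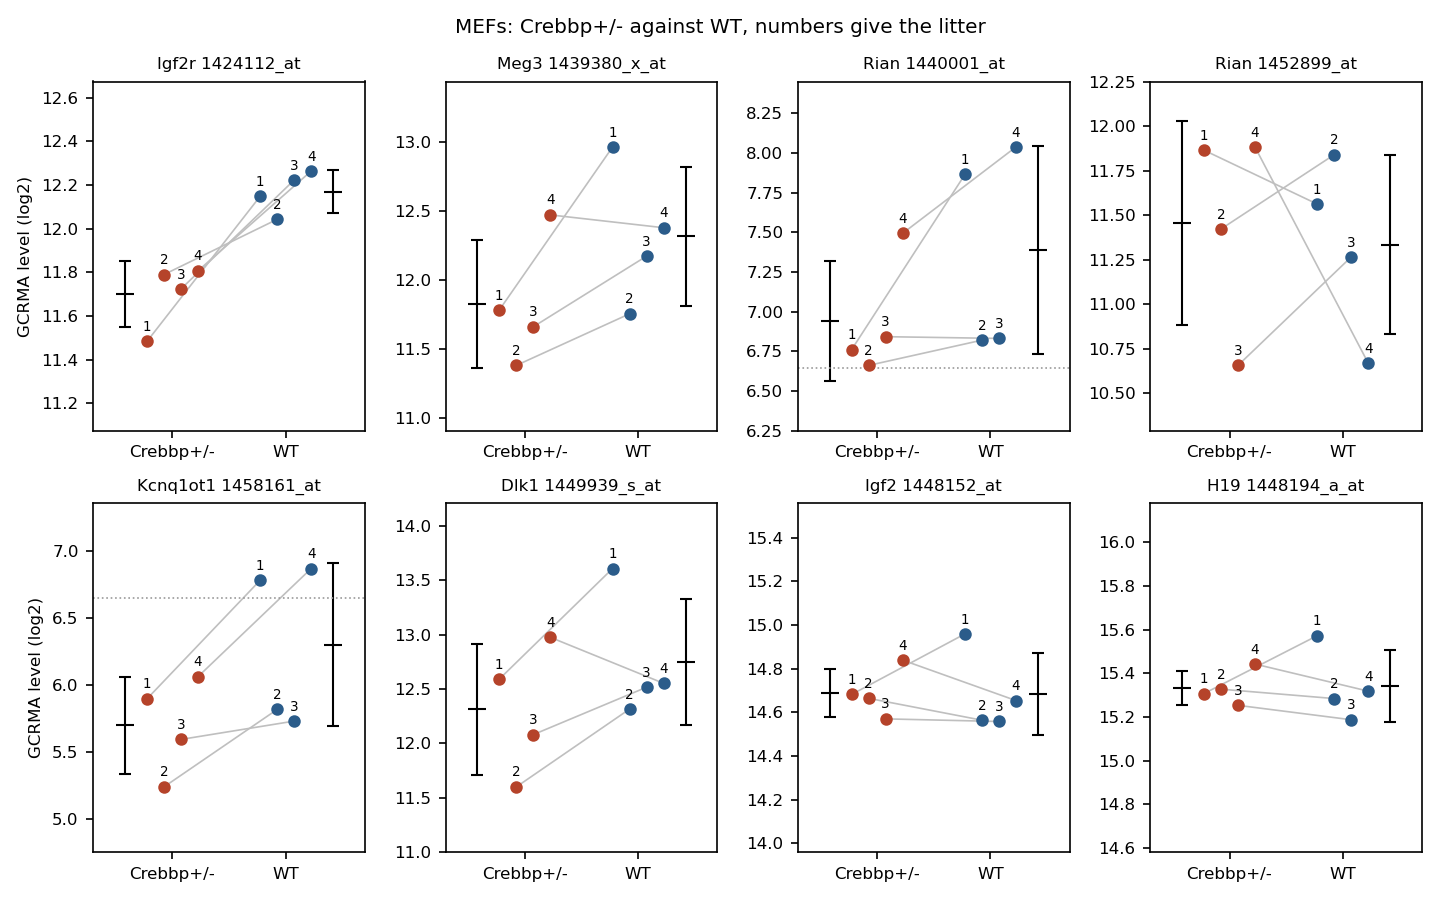
GCRMA levels (log2) of 8 probe sets in *Crebbp*+/- and WT MEFs. Points are samples with the litter number, lines join the samples of a litter, black bars show the mean and SD (n = 4), the dotted line marks log2(100), and each axis has its own range. *Igf2r* 1424112_at is lower in all 4 litters without overlap (highest *Crebbp*+/- level 11.81, lowest WT level 12.04), whereas *Igf2* 1448152_at and *H19* overlap.

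The summed intensity of the 9 fibroblast markers was 159400 to 176900 in *Crebbp*+/- MEFs and 166200 to 180800 in WT MEFs, and all 9 had a lower *Crebbp*+/- mean (median log2 difference -0.06, 0 called). Of the 8 stromal markers, 5 of them also on the fibroblast list, 7 had a lower mean (median -0.08), with sums of 140200 to 157200 in *Crebbp*+/- MEFs and 142800 to 156300 in WT MEFs. That of the 7 macrophage markers was 1676 to 2157 in *Crebbp*+/- MEFs and 2492 to 3118 in WT MEFs and did not overlap. Of the 4 measured, 2 had a lower mean, and *Vcam1*, an adhesion molecule that fibroblasts also carry, was at 10.65 ± 0.20 in *Crebbp*+/- and 11.17 ± 0.06 in WT MEFs (SD, n = 4 each), while *C1qb* was at 7.23 ± 0.21 and 7.22 ± 0.47. None of the 9 hepatocyte markers was measured. The part of these markers in the differences of the imprinted genes was not tested.

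In *Cdkn1a*-/- FL HSCs, whose values did not choose the genes either, 16 probe sets were measured and none passed the test (adjusted p 0.695 to 0.996, limma), where the share called was 0.405% of 20962 probe sets. The median log2 difference was -0.12, beside 0.06 over all probe sets, and 0 of 16 had groups without overlap, beside 7.88% of all probe sets. WT sample 3 set the upper or lower end each time. It had the highest level of the 7 samples for 12 of the 16 probe sets and the lowest for the other 4. It thus lay outside all other samples for each of them. *Meg3* 1426758_s_at counted as measured through WT sample 3 alone (6.73), so it entered the fit only through the group in which it was high. This probe set gave the lowest adjusted p of the 16 (0.695, limma).

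*Igf2* was at 11.77, 11.33, 11.52 and 11.46 in *Cdkn1a*-/- samples and at 12.25, 11.14 and 12.82 in WT samples, a log2 difference of -0.55 ± 0.38 (adjusted p = 0.720, limma). Without WT sample 3 it was -0.18. *Rian* was at 8.91, 9.05, 10.01 and 9.08 in *Cdkn1a*-/- samples and at 10.19, 9.04 and 11.67 in WT samples, a difference of -1.04 ± 0.62 (adjusted p = 0.720), or -0.35 without that sample. *Meg3* 1452183_a_at was at 7.06, 7.37, 8.37 and 6.18, against 8.27, 7.64 and 9.58, a difference of -1.25 ± 0.63 (adjusted p = 0.715), or -0.71 without it. The groups overlapped in each case, and *Cdkn1a*-/- sample 3 was the highest of its group for both RNAs of the *Dlk1* cluster.

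*Kcnq1ot1* had the opposite order. Probe set 1458161_at was at 10.82, 11.44, 11.30 and 10.89 in *Cdkn1a*-/- samples and at 11.19, 11.41 and 9.44 in WT samples. Its log2 difference of 0.43 ± 0.48 (adjusted p = 0.784, limma) became -0.19 without WT sample 3. In all, leaving out that sample turned the sign for 6 of the 16 probe sets and moved the median over these 16 to -0.10. *Igf2r* kept its direction, at 10.62, 10.19, 10.73 and 10.47 in *Cdkn1a*-/- samples and at 11.37, 10.21 and 11.42 in WT samples, with -0.50 for all samples and -0.29 without WT sample 3. *H19* (-0.14 and -0.004), *Grb10* (-0.09 and 0.02), *Peg3* (0.00 and 0.22) and *Mest* (-0.04 and 0.15) had small differences with all samples and without WT sample 3.

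**Figure D4:**
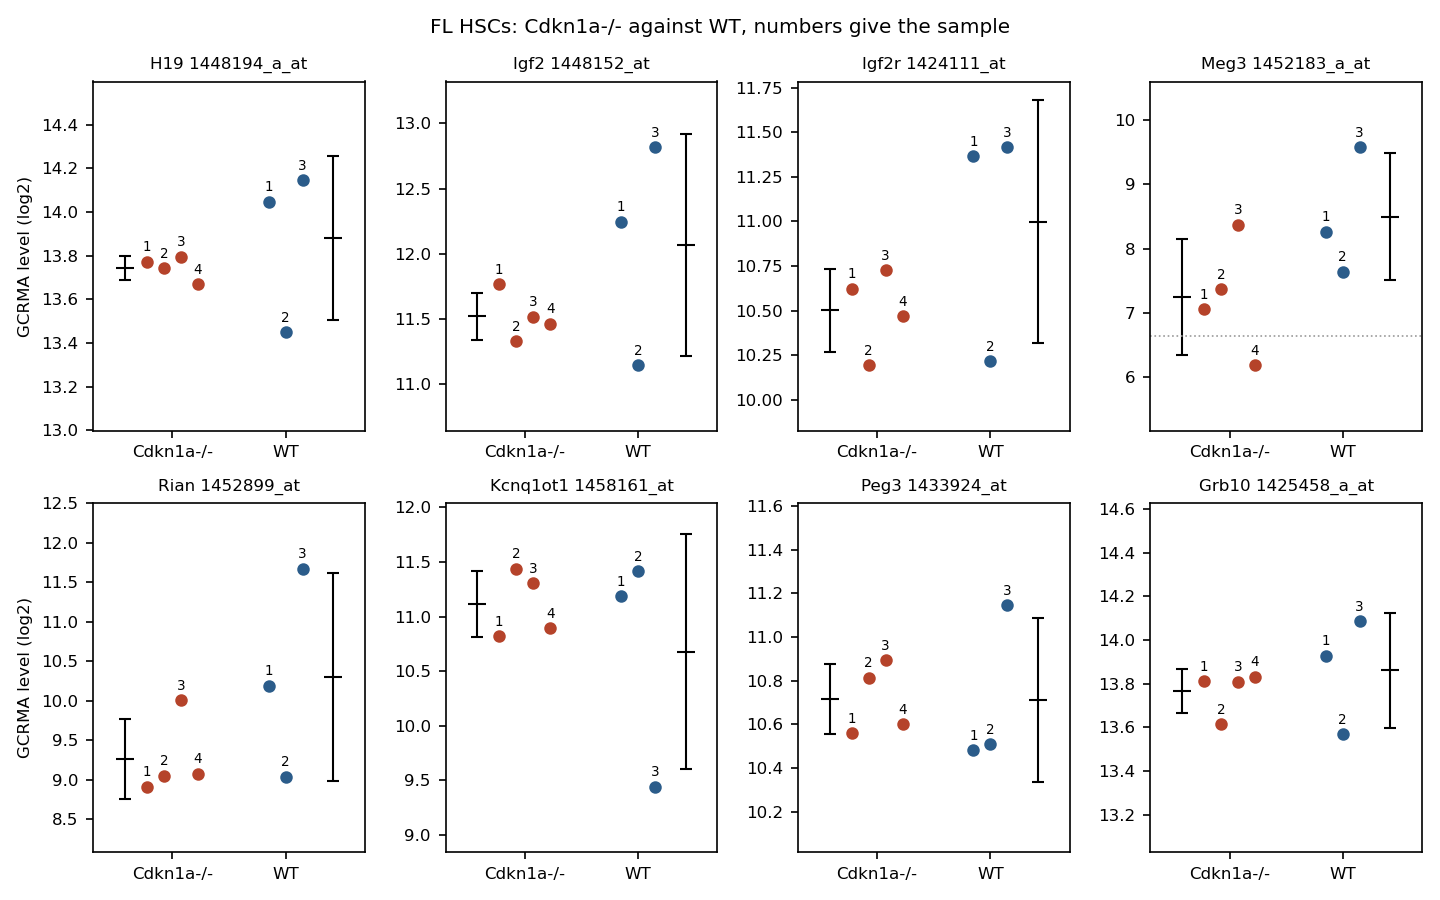
GCRMA levels (log2) of 8 probe sets in *Cdkn1a*-/- and WT FL HSCs. Points are samples with their number, black bars show the mean and SD (n = 4 and n = 3), the dotted line marks log2(100), and each axis has its own range. WT sample 3 is the highest of the 7 for *Igf2* (12.82) and *Rian* (11.67) and the lowest for *Kcnq1ot1* (9.44).

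The genes most like *H19* were led by *Igf2*. Over the 23 samples, each centred on the mean of its experiment, the Pearson r of *H19* with *Igf2* was 0.92, the highest among 8834 probe sets measured in all 4 experiments, followed by *Grb10* (0.85), *Hoxb3* (0.85), *Fat1* (0.83) and *Mylk* (0.82). Without *Cdkn1a* WT sample 3 it was *Igf2* (0.91), *Procr* (0.87), *Inafm1* (0.85), *Anxa4* (0.84) and *Mylk* (0.82). For *Kcnq1ot1* the answer depended on the probe set. The brightest over the 15 FL HSC samples, 1457781_at, was most like *Cog4* (0.95), *Tada2a* (0.94), *Nrf1* (0.92), *Sgms1* (0.91) and *Zfp451* (0.90), and without *Cdkn1a* WT sample 3 like *Tmem164* (0.92), *Tbrg3* (0.91), *Cog4* (0.88), *Rbbp4* (0.86) and *Ubn2* (0.86). The brightest in the *Crebbp* experiment, 1458161_at, was most like *Mir99ahg* and *Sin3b* (0.97 each), *Phf21a* and *Peli1* (0.96 each) and *Macf1* (0.95), and without that WT sample like *Zfp207* (0.94), *Meis1* and *Sin3b* (0.93 each) and *Mir99ahg* and *Helz* (0.92 each). The lists of these probe sets, both annotated to *Kcnq1ot1*, had no gene in common. The study lists *Meis1* and *Macf1* among its intronic targets, and whether the probe sets named here read exons or introns was not established. The samples include those of the *Crebbp* comparisons that chose the genes, and the centring leaves their differences between genotypes in r. Samples of an experiment were normalized together and MEFs of a litter share parents, and all these r are a description with no test.

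The partners of these genes in growth control were given by lists. Of 8 other genes of the imprinted growth network, 3 were measured in the *Crebbp* and *Ep300* FL HSC experiments and 7 in the others, and limma called none in any experiment. At an unadjusted p under 0.05 and a fold over 1.5 it gave 1 of them, *Dcn*, a matrix proteoglycan, in MEFs. *Dcn* was at 10.33, 10.08, 10.10 and 9.98 in *Crebbp*+/- MEFs and at 11.46, 10.63, 11.73 and 10.74 in WT MEFs, without overlap. *Cdkn1c*, the cell cycle inhibitor that *Kcnq1ot1* is known to silence, was at 11.52 ± 0.28 in *Crebbp*+/- MEFs and 12.02 ± 0.88 in WT MEFs (SD, n = 4 each), within the spread. The median of the list was -0.22 in *Crebbp*+/- FL HSCs (3 of 3 lower, *Ndn*, *Plagl1* and *Gnas*), -0.01 in *Ep300*+/- FL HSCs, 0.04 in *Cdkn1a*-/- FL HSCs and -0.05 in *Crebbp*+/- MEFs.

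Genes next to the clusters were also followed. Of 19 neighbours with a probe set, 4 were measured in *Crebbp*+/- FL HSCs, 2 of them lower, with a median of -0.03 and no call. In *Ep300*+/- FL HSCs the median was 0.005, and in MEFs, where 7 were measured, it was -0.03. In *Cdkn1a*-/- FL HSCs 9 were measured with no call, and 1, *Ddc*, the neighbour of *Grb10* that encodes an amino acid decarboxylase, passed the unadjusted p and fold, at 6.88 ± 0.18 (SD, n = 4) in *Cdkn1a*-/- and 6.02 ± 0.48 (SD, n = 3) in WT samples (adjusted p = 0.380). Of 12 further genes of IGF signalling with a probe set, among them *Igf1r*, the binding proteins and the *Igf2bp* genes, none was called in any experiment or passed the unadjusted p and fold. *Igfbp6*, a binding protein that prefers IGF2, was at 9.35 ± 0.23 in *Crebbp*+/- MEFs and 9.83 ± 0.16 in WT MEFs (SD, n = 4 each) and was lower in 4 of 4 litters.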

How the data were processed

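RNA of FL HSCs (12 ng, amplified) and of MEFs (not amplified per the study's methods, although the labels of MEF samples also describe amplification) was hybridised to Affymetrix mouse whole-genome arrays. The authors deposited log2 values made with GCRMA (version not given in the sources used here), which corrects background and normalizes, in each of the 4 experiments separately, so levels cannot be set against each other across experiments. Arrays had 11199 to 19522 probe sets at or above log2(100). Their number limits the precision.

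The technical arrays of each *Crebbp* and *Ep300* FL HSC sample were averaged (median absolute difference over the imprinted genes 0.181 and 0.352). The 64 control probe sets were left out, and probe sets with at least 1 sample of a fit at log2(100) were tested with limma 3.58.1 in R 4.3.3. The *Crebbp* and *Ep300* FL HSC samples shared 1 fit. Pairs were a block, since the study's methods name paired tests. They do not say what was paired, and the pairs used here are the sample numbers of FL HSCs and the litters of MEFs in the labels. Same-numbered samples deviated together with r of 0.70 in *Crebbp* and 0.40 in *Ep300* FL HSCs and of 0.19 to 0.46 in the litters. Two-sided p-values were adjusted over all probe sets tested. Beyond litters and pools no source names separate cultures, so p-values speak for these samples only. With the block, p-values and standard errors rest on the spread of the differences within pairs, pooled over the *Crebbp* and *Ep300* FL HSC experiments. In the *Cdkn1a* experiment, without a block, they rest on the spread between samples.

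Genes were named through GEO's platform annotation, in which 34958 probe sets have 1 gene, 932 several and 9160 none. All probe sets of the 10 genes were kept, including the shared ones of *H19* with *Mir675* and of *Igf2r* with *Airn*. From the other lists, up to 3 genes with the smallest p were eligible to be named. *Cdkn1c*, *Meis1*, *Vcam1*, *Alb*, *Slc4a1* and *C1qb* were named after their values were seen. The genes and lists were chosen with earlier results of these data known. Alternatives were the block, samples, technical arrays, filter, scaling and the methods' t-test with its own filter.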

Additional observations from a re-analysis of the deposited data

Results flagged for a closer look

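Groups of 4 samples were examined for single samples far from the rest, by the gap to the nearest sample over the range of the group, and groups of 2 or 3 were not. This was met in 6 of 70 groups of measured values (8.57%), where chance gives about 5% for independent, normally distributed values. The 70 groups share samples, and several probe sets read the same gene, so that rate need not hold for this count. In *Cdkn1a*-/- FL HSCs, *Meg3* 1426758_s_at was at 5.087 in sample 4, against 5.848 to 5.851 in the other 3, *Rian* 1452899_at at 10.009 in sample 3, against 8.912 to 9.077, and *Grb10* 1425458_a_at at 13.614 in sample 2, against 13.809 to 13.832. The narrow range of *Meg3* lies below log2(100). In *Crebbp*+/- MEFs *Meg3* 1452906_at was at 7.333 in litter 4, against 6.251 to 6.379 in litters 1 to 3. In WT MEFs of litter 1 *Grb10* 1425457_a_at was at 11.861, against 12.399 to 12.444 in the other litters, and 1430164_a_at was at 9.672, against 10.563 to 10.704. The brightest *Grb10* probe set was not among them in that sample.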

How the results depend on the processing

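The count of all probe sets called in *Crebbp*+/- FL HSCs depended on the settings. It was 51, but 0 without the replicate block, with the 4 samples alone, with either technical array, without either pair and with no filter. It was 222 with a filter on the mean level, 221 with centred samples, 143 with quantile normalization, and 199 unadjusted and 0 adjusted by the methods' t-test. The median of the imprinted genes stayed at -0.41 to -0.31 without either pair, and was -0.085 with no filter, where 38 probe sets enter. *Igf2* and *Kcnq1ot1* 1458161_at met the call rule under 3 alternatives (mean filter, centring and quantile normalization) and *Meg3* under 1 (centring), which is no test, since these values chose them.

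In MEFs 0 probe sets were called, against 2 without the replicate block and 0 to 2 without a litter (2 without litter 1). The methods' t-test called 61 unadjusted, and the median was -0.36 to -0.15 without a litter. In *Ep300*+/- FL HSCs the t-test called 11 unadjusted, and the median was -0.074 to 0.037 without a pair. In *Cdkn1a*-/- FL HSCs 85 were called, against 6 where numbers 1 to 3, which pair nothing in the labels, formed a replicate block, 42 with no filter, 38 with a filter on the mean, 548 unadjusted and 141 adjusted by the t-test, and 38 to 87 without a sample. The median was -0.30 (without WT sample 2) to -0.068 (without WT sample 3, over the 15 probe sets then measured). No member outside the *Crebbp* FL HSC comparison changed its call. Differences near 0 changed sign in places, and levels below log2(100) rest on the background correction.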

Other observations

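Imprinted genes outside the growth clusters had means on both sides of WT, and limma called 0 in any experiment. Of 22 with a probe set, 9 were measured in *Crebbp*+/- FL HSCs (5 lower, median -0.01, 0 called by limma, 3 at an unadjusted p under 0.05 and a fold over 1.5). *Impact*, a regulator of translation under amino acid stress, was at 8.49 and 9.03 in *Crebbp*+/- samples and at 9.48 and 10.02 in WT samples, a log2 difference of -0.997 ± 0.130 (standard error, adjusted p = 0.052). *Mcts2*, a retrogene inside an intron of *H13*, was at 8.42 and 8.04 in *Crebbp*+/- samples and at 7.50 and 7.64 in WT samples, while *H13* was at 10.47 and 10.26 against 10.70 and 10.87. Host and retrogene thus lay on opposite sides of WT in both pairs, with adjusted p of 0.152 and 0.106.

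In *Crebbp*+/- MEFs 12 were measured, 9 of them higher, with a median of 0.08 and 0 called by limma, and 2 passed the unadjusted p and fold. *Nnat*, a paternally expressed membrane proteolipid gene, was at 7.34, 7.61, 7.78 and 7.76 in *Crebbp*+/- MEFs and at 5.94, 7.09, 6.69 and 6.14 in WT MEFs, without overlap (log2 difference 1.16 ± 0.19, adjusted p = 0.505). *Asb4* was at 7.69 ± 0.39 in *Crebbp*+/- and 6.98 ± 0.59 in WT MEFs (SD, n = 4 each) and higher in 4 of 4 litters. In *Ep300*+/- and *Cdkn1a*-/- FL HSCs the medians were 0.05 and -0.02, with 0 called and 0 at the unadjusted p and fold.

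Of 16 genes that establish or keep imprints, such as *Ctcf*, *Trim28*, *Dnmt1* and *Zfp57*, 13 were measured in every experiment, and limma called 0 in each, with 0 at an unadjusted p under 0.05 and a fold over 1.5. The median log2 difference was -0.04 in *Crebbp*+/- FL HSCs, 0.01 in *Ep300*+/- FL HSCs, 0.08 in *Cdkn1a*-/- FL HSCs and 0.10 in *Crebbp*+/- MEFs.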
